A study of Danio rerio with 12 samples.

Results

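Open chromatin was compared between GFP-positive and GFP-negative cells that lacked mCherry. Whole zebrafish embryos were screened for the transgenes, homogenised and sorted by flow cytometry 72 hours after fertilisation. They were of wild-type genotype, untreated, and carried the transgenes kdrl:mCherry and sele:GFP together. Every group thus shares both transgenes, and the labels tell the groups apart by the sorting gate. Cell number is given only as a range for all samples, so it may differ between groups as well. The GFP only fraction (kdrl:mCherry-, sele:GFP+) and the double negative fraction (kdrl:mCherry-, sele:GFP-) held 3 samples each, of 12 in the series. Between 12000 and 50000 cells of a fraction were exposed to the Tn5 transposase, which cuts and tags accessible DNA (ATAC-seq). A gate names reporter fluorescence and no cell type. The double negative fraction is whatever remained of the embryo without either reporter. The labels name a gene for each transgene, kdrl and sele, and do not describe the regulatory sequence used.

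The members are all peaks of both lists on chromosomes 1 to 25, and an overlap of at least 1 bp made a pair of peaks shared. The GFP only list held 138364 such peaks and the double negative list 166282. Together they formed 209022 separate regions, of 240071 regions over the 4 lists of the series. Each fraction has 1 list for its 3 samples. No difference given here has a replicate check, and p-values are therefore absent. The intervals given are 95% intervals of counting error only. Which cells a gate holds could not be checked against marker genes, since no gene annotation of the danRer7 build was used here, and regions are given by position alone.

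ATAC-seq peaks mark promoters, enhancers and other DNA that nucleosomes leave accessible. Regions open in nearly all cell types include many promoters, whereas enhancers are more often open in particular cell types. kdrl is a receptor gene of the vascular endothelium, and sele codes for E-selectin, through which endothelial cells capture leukocytes. Cells with GFP and without mCherry therefore carry the reporter of an endothelial adhesion gene outside the gate of the general endothelial reporter. In a sorted mixture, more open chromatin per cell and more cells with the region open cannot be told apart.

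Summit reads were recovered from the deposited values. To compare lists, these reads were divided by the genome-wide background of their own list, and the quotient is called height. The background was 4.26 reads for GFP only and 4.47 reads for double negative, a ratio of 0.955. The lowest peak in either list had 11 reads. The highest had 369 reads in GFP only and 365 in double negative.

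Of the 209022 regions, 92273 (44.1%) had a peak in both fractions. A further 43782 GFP only peaks had no double negative peak and are called gained, which is 31.6% of the GFP only list (Wilson 95% interval 31.4 to 31.9). Conversely, 72967 double negative peaks had no GFP only peak and are called lost, or 43.9% of that list (43.6 to 44.1). Lost peaks thus outnumbered gained peaks by 1.67 to 1, and the ratio was 1.03 when the double negative list was shortened to the length of the GFP only list. Equal lengths bring this ratio close to 1 by arithmetic, since 89084 of the 92273 shared regions held 1 peak in each list. In bases, 36.3 Mb lay in both lists, 18.8 Mb in GFP only peaks alone and 36.8 Mb in double negative peaks alone. Gained and lost describe peak calls alone, since the reads of a list outside its peaks are not known here. Median summit reads were 20 in gained and 21 in lost peaks, and peaks were called from 11 reads upwards. Signal too low for a call may therefore be present in the other fraction, and the difference at such a region has no known size.

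Nearly all of the surplus of lost peaks lay below height 10. It was not concentrated in the lowest bin, with 19302 lost against 15415 gained peaks below height 4. Between heights 4 and 5 there were 21407 against 10463, and between 6 and 8 there were 12277 against 6028. Below height 4, 52.2% of GFP only peaks were gained and 70.0% of double negative peaks were lost. At height 10 or more the shares were close to equal. There 3777 of 32113 GFP only peaks were gained (11.8%, 11.4 to 12.1) and 4342 of 36391 double negative peaks were lost (11.9%, 11.6 to 12.3). At height 20 or more the order was the other way round, with 210 of 7727 GFP only peaks gained (2.72%, 2.38 to 3.10) and 111 of 8998 double negative peaks lost (1.23%, 1.03 to 1.48). Median height was 4.69 for gained and 4.70 for lost peaks, against 6.80 for shared GFP only and 7.61 for shared double negative peaks.

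**Figure D1:**
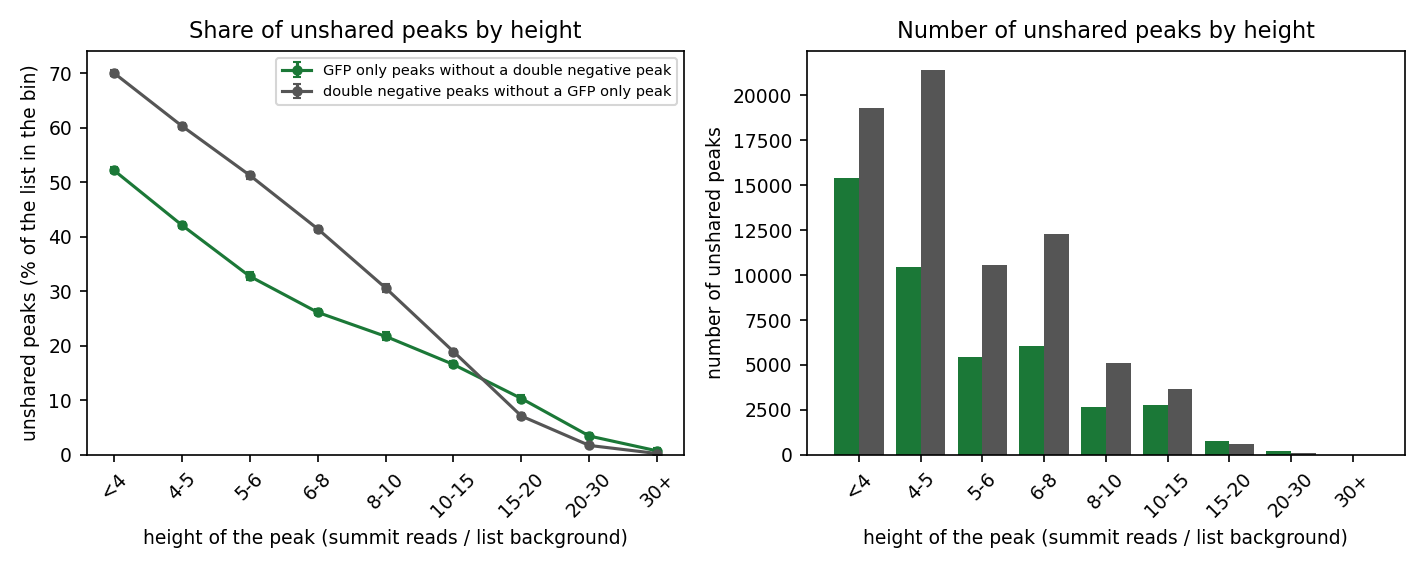
Unshared peaks by height, the number of summit reads over the background of the list. On the left is the percentage of each list without a peak in the other (bars, Wilson 95% intervals), and on the right the number of such peaks. The lost share is the higher one up to height 10 to 15, and the gained share is the higher one from height 15 to 20 upwards (10.3% against 7.11%).

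Most unshared peaks were not near misses of the overlap rule. The median distance from a gained peak to the nearest double negative peak was 2957 bp, and from a lost peak to the nearest GFP only peak 3993 bp. Within 500 bp of a peak of the other list lay 4475 gained peaks (10.2%) and 5500 lost peaks (7.54%). At the 1 bp threshold itself, 160 GFP only peaks shared no more than 20 bp with a double negative peak and had a median height of 3.99. Another 132 gained peaks lay within 20 bp of one without touching it, also with a median height of 3.99. A stricter rule did change the counts. With reciprocal overlap of 50% there were 60899 gained and 88817 lost peaks. The shared part of the GFP only list was then 56.0% in place of 68.4%, and that of the double negative list 46.6% in place of 56.1%.

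The 10 gained regions with the highest fold were spread over 9 chromosomes. Fold here is the authors' own value for each peak, the enrichment of the summit over its expected background, and it ranged from 13.5 to 17.0 in these regions. The first lay at chr14:8855537-8856295, with 104 reads (exact Poisson interval 85.0 to 126). No peak was called there in the double negative, mCherry only or double positive list. Next came chr11:24758644-24759127, with 87 reads (69.7 to 107). It was called in both mCherry-positive lists too, with 51 reads in mCherry only and 21 in double positive. On chromosome 8, the region at chr8:16828361-16829072 had 94 reads (76.0 to 115) and was called in no other list. Of the 10 regions, 7 were absent from both mCherry-positive lists.

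The 10 lost regions with the highest fold had folds of 13.7 to 14.95 and also lay on 9 chromosomes. The first was at chr1:54192078-54192458, with 92 reads (74.2 to 113), and was called in no other list. That at chr12:30002771-30003467 had the most reads of the 10, 103 (84.1 to 125). In mCherry only it reached 23 reads. The region at chr20:20753463-20754107 had 102 reads (83.2 to 124), and 29 reads in mCherry only. Of these 10, 7 were also called in mCherry only, with 15 to 29 reads, and none was called in double positive.

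The same contrast held over all tall unshared peaks. Of the 4342 lost peaks of height 10 or more, 2397 (55.2%, 53.7 to 56.7) were also called in mCherry only. Of the 3777 gained peaks of that height, 914 (24.2%, 22.9 to 25.6) were. Over all peaks of height 10 or more, shared ones included, mCherry only held 92.2% of the double negative and 86.5% of the GFP only list. The share of lost peaks found in mCherry only rose with height, from 17.8% below height 4 to 82.7% (74.3 to 88.8) between 20 and 30. Over all double negative peaks the share rose too, from 27.8% to 99.4% in the same bins. The share of gained peaks was 34.6% between heights 6 and 8 and 19.5% (14.5 to 25.6) between 20 and 30, where it was 92.7% over all GFP only peaks. At height 30 or more the order was the other way round, with 8 of 15 gained peaks (53.3%, 30.1 to 75.2) and 2 of 7 lost peaks (28.6%, 8.22 to 64.1) in mCherry only, and these intervals overlap. Of the tall gained peaks, 2765 of 3777 (73.2%) were called in GFP only and in no other list. Of the tall lost peaks, 1848 of 4342 (42.6%) were called in double negative and in no other list. Over all tall peaks these shares were 12.7% of GFP only and 7.26% of double negative. Both classes by definition lack a peak in the other list of the pair, which raises their shares.

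The other GFP-positive fraction shared few of the gained peaks. The double positive list held 565 of the 3777 tall gained peaks (14.96%, 13.9 to 16.1) and 840 of the 4342 tall lost peaks (19.3%, 18.2 to 20.5), against 78.6% of all tall GFP only and 77.3% of all tall double negative peaks. Over all heights it held 16.6% of gained and 11.9% of lost peaks, against 47.4% and 39.9% of the whole lists, so the order of the classes depended on height. Of the tall gained peaks, 98 (2.59%, 2.13 to 3.15) were called in double positive and not in mCherry only, that is, in exactly the GFP-positive fractions. This was above the 0.772% over all tall GFP only peaks. Tall lost peaks showed the same pattern of calls in 97 cases (2.23%, 1.83 to 2.72), against 0.588% over all tall double negative peaks. The double positive list is the shortest of the 4, with 90687 peaks on these chromosomes, and the mCherry only list has 134260.

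**Figure D2:**
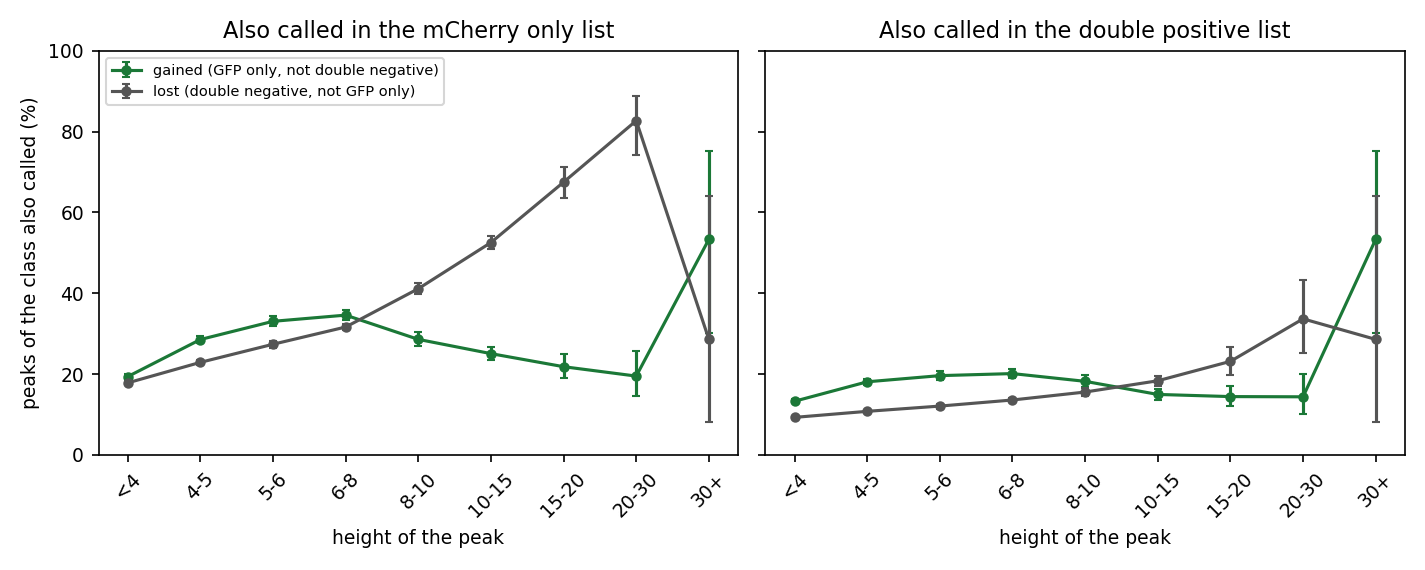
Percentage of gained and of lost peaks, by height, that were also called in the mCherry only list (left) and in the double positive list (right), with Wilson 95% intervals. In mCherry only, lost peaks climb to 82.7% between heights 20 and 30 while gained peaks stand at 19.5%. The last bin holds 15 gained and 7 lost peaks, and there the gained share in mCherry only is the higher one.

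Unshared peaks of height 30 or more lay mostly where the local background was high. There were 15 gained and 7 lost, and in 13 and 7 of them the local background at the summit was over 10 times the lowest of the list. These peaks had folds of only 1.27 to 2.28 (gained) and 1.39 to 2.44 (lost). Among the 13 gained ones, 5 lay on chromosome 8. With peaks of more than 2 times the lowest background left out, 40577 gained and 68963 lost peaks were left.

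Where both fractions had a peak, signal was mostly similar. Of the shared regions, 89084 held 1 peak in each list, and 25391 of those had a geometric mean height of 10 or more. In the latter, summit height in GFP only was 0.933 of that in double negative in the median (interval of the median 0.929 to 0.937), with quartiles of 0.746 and 1.17. The direction depended on how regions were selected: the median was 1.08 among regions with a GFP only height of 10 or more and 0.795 among those with a double negative height of 10 or more. Counting error alone covered a ratio of 1 in 16636 of the 25391 regions (65.5%). Summits were a median of 15 bp apart, and within 100 bp in 90.4% of these regions.

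A minority of tall shared regions differed strongly. GFP only was at least 2-fold higher in 1542 of the 25391 (6.07%) and double negative in 2114 (8.33%). At 3-fold the numbers were 540 (2.13%) and 703 (2.77%). Among all 89084 regions the 2-fold counts were 5076 (5.70%) and 9510 (10.7%). At geometric mean height 20 or more they were only 32 and 99 of 6292 regions. With the deposited fold, which divides by the local background, in place of height, 535 and 628 of the tall regions were 2-fold apart. Regions 2-fold higher in GFP only had a median of 90 reads in GFP only and 33 in double negative. Those 2-fold higher in double negative had medians of 32 and 93. Median heights were 21.1 and 7.39 in the former regions and 7.50 and 20.8 in the latter, in the same order. In the median the lower side was thus below height 10. Differences were smaller at the top of the range. The highest summit had 369 reads in GFP only, 365 in double negative, 370 in mCherry only and 371 in double positive. Whether an upper limit on reads narrowed the ratios was not tested. None of the 541 regions of geometric mean height 40 or more was 2-fold apart, and their quartiles were 0.906 and 1.12.

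**Figure D3:**
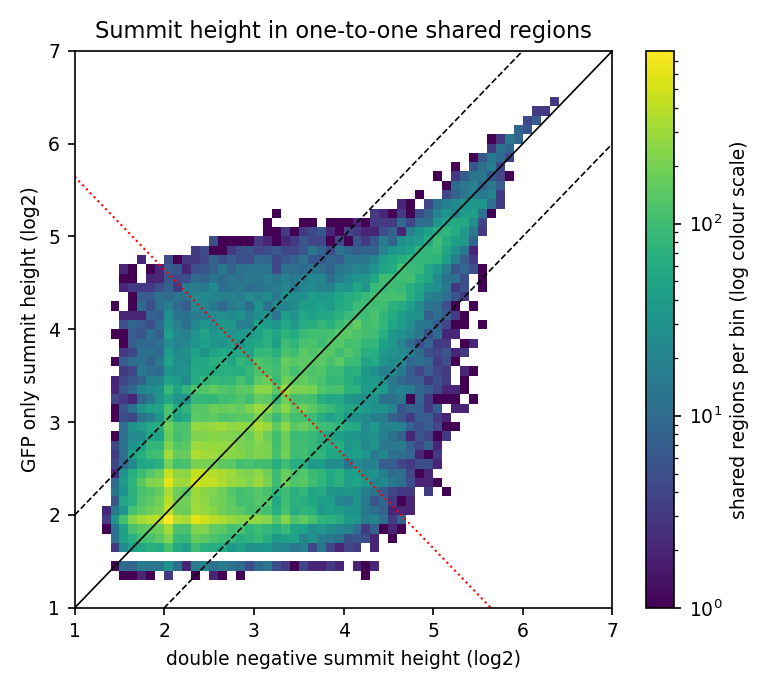
Summit height in the 89084 regions with 1 peak in each list, on log2 axes, with the number of regions per bin on a log colour scale. The solid line marks equal height, the dashed lines 2-fold differences and the dotted line a geometric mean height of 10. Most regions lie near the solid line, and both flanks hold tall regions of one fraction that are low in the other.

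The 5 tall shared regions with the highest ratio in GFP only had 108 to 114 reads there and 18 or 19 in double negative. Their heights were 25.3 to 26.7 in GFP only and 4.03 to 4.26 in double negative. They therefore reach a geometric mean height of 10 only through GFP only. The intervals given do not allow for their choice as extremes of 25391 regions. Local background was higher on the side with more reads in all 5, and with the deposited fold, which divides by it, the ratios were 2.96 to 4.26. At chr10:46181805-46182710, GFP only had 114 reads and double negative 18, a ratio of heights of 6.63 (exact interval 4.01 to 11.6). Its summits lay 296 bp apart, so the ratio compares different positions within the region, and the ratio of deposited folds was 3.56. At chr11:43471412-43472163 there were 113 reads against 18, a ratio of 6.57 (3.98 to 11.5), with summits 179 bp apart and a ratio of deposited folds of 3.31. No peak was called in the double positive list at any of the 5, and 2 of the 5 had a low peak in mCherry only, with 14 and 17 reads. At chr14:8968534-8969275, with 114 against 19 reads, neither mCherry-positive list had a peak. That region lies 112 kb from the tallest gained region on chromosome 14 by fold.

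The 5 regions highest in double negative had 116 to 163 reads there and 17 to 20 in GFP only. At chr23:4830620-4831441, double negative had 163 reads and GFP only 20, so that double negative was 7.78 times as high (4.88 to 13.1), or 3.38 times by the deposited fold. mCherry only had 34 reads there and double positive 23. The region at chr23:4634946-4635835, 195 kb away, had 116 reads against 17 and was 6.52 times as high (3.90 to 11.6). Its summits lay 435 bp apart, and by the deposited fold the ratio was 3.28. Over the 5 regions the ratios of deposited folds were 3.28 to 4.91. All 5 were called in mCherry only, with 24 to 37 reads, and 2 in double positive. In each of these regions mCherry only stood closer to GFP only than to double negative in reads. The regions were chosen for an extreme double negative value, so this closeness cannot be read as a likeness of the fractions.

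Over the 2-fold regions called in all 4 lists, median heights of the mCherry-positive fractions lay between those of the fractions compared. These were 948 of the 1542 regions higher in GFP only and 1742 of the 2114 higher in double negative. Regions without a peak in either or both mCherry-positive lists are thus left out. In the 948 regions higher in GFP only, median height was 21.1 in GFP only, 7.84 in double negative, 11.2 in mCherry only and 8.54 in double positive. In the 1742 regions higher in double negative, it was 7.74, 21.2, 11.7 and 7.85 in the same order. Double positive was nearer to double negative than to GFP only in 70.5% of the former regions and in 17.6% of the latter, against 48.0% over all 23244 tall regions called in the 4 lists. For mCherry only these shares were 62.2%, 36.5% and 53.5% in the same order. In both directions both mCherry-positive fractions were therefore mostly nearer to the lower of the fractions compared. The regions were chosen for an extreme ratio of GFP only to double negative. Neither the place in between nor this closeness can thus be read as a likeness of the fractions. In terms of calls, mCherry only had a peak in 99.2% of the regions higher in double negative and in 82.1% of those higher in GFP only, against 98.0% over all tall shared regions. Double positive had a peak in 82.5%, 63.4% and 91.8% in the same order.

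Peaks were narrower in GFP only cells. Median width was 276 bp for gained peaks (quartiles 224 and 357) and 315 bp for lost peaks (242 and 431). Shared peaks had medians of 387 bp in GFP only and 448 bp in double negative. In regions with 1 peak in each list, the GFP only peak was 0.929 times as wide as its partner in the median (0.927 to 0.931) and the narrower one in 62.2% of 89084. Where the heights were within 1.1 times of each other, the ratio was 0.959 (0.956 to 0.962) over 17054 regions. Double negative peaks also spanned several partners more often. Of the 166282 double negative peaks, 2265 lay over 2 or more GFP only peaks. Of the 138364 GFP only peaks, 1031 lay over 2 or more double negative ones.

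Median widths at like height also differed between the lists, over shared and unshared peaks together. Between heights 10 and 15 the median was 474 bp in GFP only and 541 bp in double negative. The mCherry only list lay between them with 499 bp, and double positive had 462 bp. GFP only peaks were narrower than double negative peaks in every bin from height 4 upwards, and at height 30 or more the medians were 730.5 bp and 836.5 bp. The backgrounds of the double positive and mCherry only lists were 0.813 and 0.999 of that of double negative. The part of sequencing depth in the widths was not tested. Within a list, unshared peaks were narrower than shared peaks of like height. Between heights 10 and 15 the medians were 390 against 492 bp in GFP only and 499 against 553 bp in double negative. A wider peak meets the 1 bp overlap rule more easily, and the part of that rule in this gap was not tested.

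**Figure D4:**
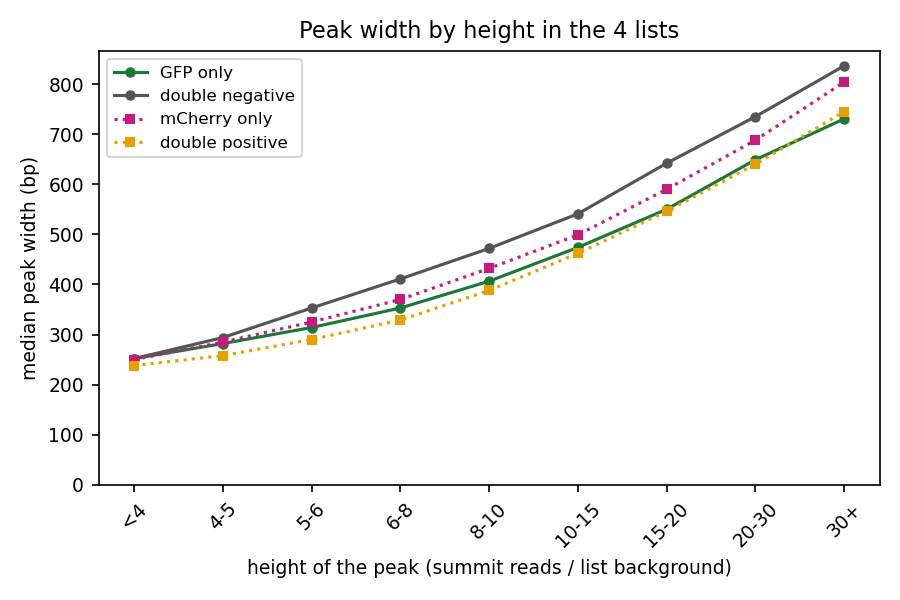
Median peak width in bp by height bin in the 4 lists. GFP only and double negative start at the same width below height 4, 252 bp, and stand at 730.5 and 836.5 bp at height 30 or more. The mCherry only and double positive lists are shown for context.

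Along the genome, gained and lost peaks were spread over all 25 chromosomes. The gained share of GFP only peaks ranged from 29.9% on chromosome 18 to 34.8% on chromosome 4. The lost share of double negative peaks ranged from 40.5% on chromosome 23 to 46.9% on chromosome 24. Tall gained peaks numbered 96 to 210 per chromosome and tall lost peaks 111 to 296. Chromosome ends held similar shares of the classes. Within 2 Mb of the outermost peaks lay 8.09% of gained peaks and 8.48% of shared GFP only peaks, and 8.51% of lost and 8.49% of shared double negative peaks. Among tall peaks, the share near the ends was 8.37% of gained (7.53 to 9.29) and 9.81% of shared GFP only peaks (9.47 to 10.2). These intervals do not overlap, but they treat peaks as independent, and 57.9% of tall gained peaks lay within 50 kb of another. The share near the ends was 9.47% of lost and 9.53% of shared double negative peaks.

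**Figure D5:**
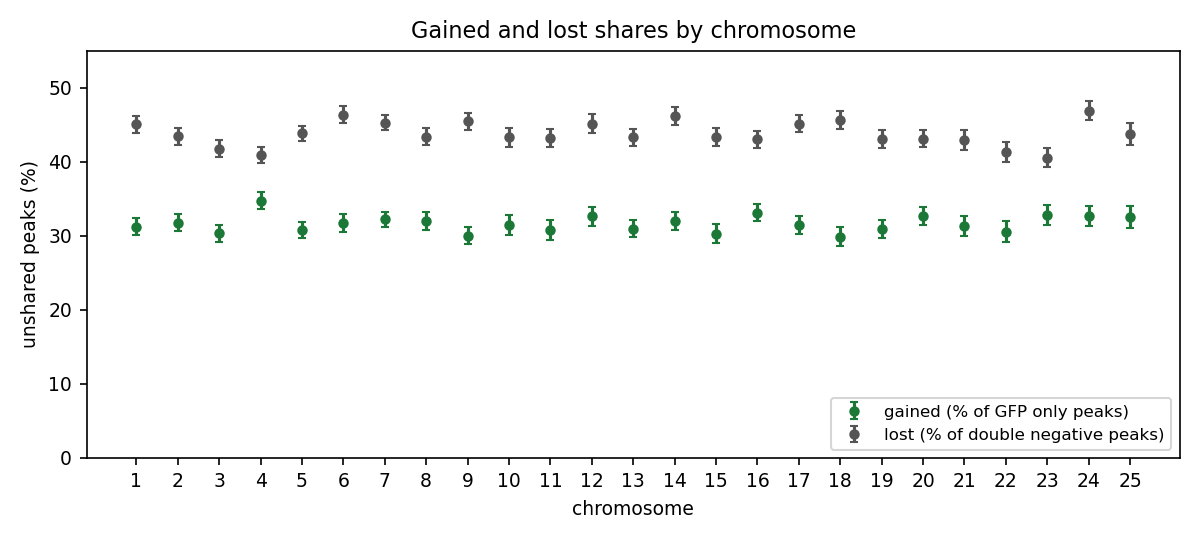
Gained peaks as a percentage of GFP only peaks and lost peaks as a percentage of double negative peaks, for each chromosome, with Wilson 95% intervals. Chromosome 4 has the highest gained share (34.8%) and a lost share of 40.9%.

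The high gained share of chromosome 4 came from its long arm, here all positions beyond 25 Mb, which in zebrafish is rich in repeats and heterochromatin. Of the GFP only peaks there, 1408 of 3459 (40.7%, 39.1 to 42.4) were gained, against 28.1% on the rest of the chromosome and 31.4% over the genome outside the arm. Lost peaks were fewer there, 1095 of 3139 (34.9%, 33.2 to 36.6), against 44.1% outside. The arm held 3.22% of all gained and 1.501% of all lost peaks, against 2.50% of all GFP only and 1.89% of all double negative peaks. GFP only had more peaks than double negative in 7 of the 8 windows of 5 Mb on the arm, and in 16 of 278 windows of the genome. The arm's gained peaks were low, with a median height of 4.34. Among tall peaks the gained share was not raised: 31 of the 363 tall GFP only peaks on the arm were gained (8.54%, 6.08 to 11.9), against 11.8% outside it, which lies within that interval. Of the tall double negative peaks there, 19 of 334 were lost (5.69%, 3.67 to 8.71), against 11.99% outside. In the 1908 regions of the arm with 1 peak in each list, the median height ratio was 1.07 (1.05 to 1.09), against 0.937 elsewhere. Of the 1542 tall regions 2-fold higher in GFP only, 6 (0.389%) lay on the arm, and of the 2114 higher in double negative 12 (0.568%), against 282 of all 25391 tall shared regions (1.11%).

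Other windows of 5 Mb stood out by gained or by lost share. The highest gained share was 43.3%, on chromosome 14 from 10 to 15 Mb (162 of 374 GFP only peaks), followed by 42.7% on chromosome 22 from 25 to 30 Mb. The lost shares there were 45.6% (175 of 384 double negative peaks) and 33.2%, so the chromosome 14 window was above the median window in both shares. The lowest was 21.3%, on chromosome 22 from 0 to 5 Mb, where the lost share was also among the 3 lowest (30.6%). The highest lost share was 62.7%, on chromosome 12 from 40 to 45 Mb (395 of 630 double negative peaks), followed by 57.5% on chromosome 16 from 0 to 5 Mb. The gained shares there were 31.5% and 37.7%, so the chromosome 16 window too was above the median window in both shares. The median window had a gained share of 31.5% and a lost share of 43.7%.

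Regions that differed lay near others that differed in the same direction. A tall gained peak lay within 50 kb of 54.5% of the tall shared regions 2-fold higher in GFP only (52.0 to 57.0). The corresponding share was 32.2% for all tall shared regions and 19.4% (17.8 to 21.2) for those 2-fold higher in double negative, a ratio of 2.81 between the directions. With regions chosen by the deposited fold in place of height, that ratio was 1.64, and within 20 kb it was 4.75. The mirror image was seen for lost peaks: a tall lost peak lay within 50 kb of 46.0% of the regions higher in double negative (43.9 to 48.1), of 30.3% of all tall shared regions and of 25.8% of those higher in GFP only. Of the shared regions higher in GFP only, 39.4% had another such region within 50 kb and 11.3% had one higher in double negative. Over all tall shared regions these shares were 16.2% and 17.3%. Local peak density differed as well, with a median of 15 GFP only and 15 double negative peaks within 50 kb of the regions higher in GFP only, and 12 and 15 for the regions higher in double negative. Its part in these shares was not tested.

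The longest runs are given as examples. They were chosen for their length, so they cannot serve as support for grouping. Runs were chains of unshared peaks with gaps of at most 20 kb, and shared peaks could lie within them. The part of local peak density in the length of runs was not tested. The longest gained run lay at chr1:52764473-52925190 and held 32 gained peaks, 16 of them of height 10 or more. In those 161 kb the GFP only list had 44 peaks, double negative 17, mCherry only 12 and double positive 8. Of the 32 gained peaks, 4 were called in mCherry only and 0 in double positive. The next gained run, at chr16:25582095-25726442, held 23 gained peaks, of which 6 were tall. Of these 23, 4 were called in mCherry only and 1 in double positive. The longest lost run lay at chr6:4717099-5211834 and held 75 lost peaks, of which 3 were tall. Double negative had 101 peaks there and GFP only 32. Of the 75, 14 were called in mCherry only and 1 in double positive. At chr16:76095-548079, 72 lost peaks formed the next run, with 12 called in mCherry only and 1 in double positive. Over all gained peaks, 26.3% were called in mCherry only and 16.6% in double positive. Over all lost peaks these shares were 26.9% and 11.9%. Within the lists, a peak following a gained peak was itself gained in 36.9% of cases, against 29.2% after a shared peak. After a lost peak the next double negative peak was lost in 51.8% of cases, against 37.7% after a shared one.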

How the data were processed

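Peaks were analysed as the authors deposited them, 1 narrowPeak list per fraction, which the labels name for all 3 samples. The submitters' processing notes name MACS2 2.1.0 and Bowtie2 2.2.1, with danRer7 as the build. The sources used here do not give caller settings, read filters, Tn5 offsets, pooling or read totals, so depth is known only through the background. Each deposited peak has a display score, a fold (a linear ratio), −log10 p and −log10 q values and a summit offset. The score, 10 times −log10 q to within rounding in 100% of peaks, was not used.

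The read number at a summit is the whole number that gives both the fold (pseudocount 1) and the −log10 p under a Poisson tail. The largest misfit was 0.000382 and the next-best number missed by at least 0.0113. This model is inferred from the values. The lowest expected background of a list served as its genome-wide background. Coordinates are danRer7, 1-based.

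Shares carry Wilson intervals, reads exact Poisson intervals and ratios exact conditional binomial intervals, all at 95%; medians carry order-statistic intervals. Overlap and recovery were checked on simulated data. Python 3.11.15, numpy 2.4.6, pandas 2.3.3 and scipy 1.17.1 were used.

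Named regions are the 10 gained and 10 lost peaks of highest fold, the 5 tall shared regions of highest and of lowest height ratio, the 2 longest runs per class and the leading 5 Mb windows; examples were given from each. Distances between named regions were noted after their values were seen. The comparison, classes and thresholds were chosen with earlier results of these data known. No danRer7 genome or annotation was used here, so genes and sequences are not reported.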

Additional observations from a re-analysis of the deposited data

How the results depend on the processing

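No paired analysis was possible because the 3 samples of a fraction stand behind a single list, so none could be left out. A count or ratio of counts was taken as unmoved within 1.5 times, a median within its 95% interval. Gained and lost peaks were recounted under 9 alternatives. Counting peaks with −log10 q from 5 upwards gave 23404 gained and 43907 lost, height 10 or more in the counted list 3777 and 4342, and height 5 or more in both lists 27764 and 47754. With lists of equal length the ratio of lost to gained was 1.03, that among tall peaks 0.985 (1.15 as called), and the gained over the lost share on the chromosome 4 arm 3.52 (2.14 as called). The first of these ratios is brought close to 1 by the equal lengths themselves, since most sharing was of 1 peak with 1 peak. The share of tall lost peaks in mCherry only was 1.62 to 2.62 times that of tall gained peaks under the 8 alternatives that could change it. The median height ratio was 0.942 over all shared regions with 1 peak in each list, 0.927 at geometric mean height 5 or more, 1.08 selected on GFP only height, 0.795 selected on double negative height, 0.891 with unscaled reads and 0.971 with the deposited fold. The deposited fold left 535 and 628 regions at least 2-fold apart. The median width ratio was 0.938 with −log10 q of 5 or more in both lists, 0.916 with equal lengths, 0.947 with reciprocal overlap of 50% and 0.959 at matched height. Closeness to tall gained peaks was 2.81 times as frequent for regions higher in GFP only as for the opposite regions. That ratio was 4.75 within 20 kb and 1.64 with the deposited fold. Closeness to tall lost peaks ran the other way by 1.78, and by 1.33 to 2.41 under 4 alternatives. The cause of these moves was not tested. Alternatives on local background, matched height and closeness were chosen after seeing the data.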
